A study of Mus musculus with 36 samples.

Results

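Fkbp5, Tsc22d3, Klf9, Klf15, Zbtb16, Sgk1, Ddit4 and Cdkn1a are 8 genes known to be induced by glucocorticoids, and they were taken by gene name from a table of 46893 annotated features. All 8 were found, and all 8 passed the minimum mean count of 25 in every comparison. Messenger RNA was sequenced from the gastrocnemius, a calf muscle, of 36 male wild-type C57BL/6 mice that were 3 to 4 weeks old when a 12-week protocol of diet and voluntary wheel running began. The 6 groups held 6 mice each: sedentary mice on the AIN93G diet (NFD-C), sedentary mice on a high-fat diet (HFD-C), and mice on the high-fat diet that ran 2.1 km/day (HFD-25%), 4.2 km/day (HFD-50%), 6.3 km/day (HFD-75%) or 8.3 km/day (HFD-U). The last distance was unrestricted and the percentages are relative to it, with shorter distances set by a brake on the wheel. All mice were of 1 sex and 1 strain, all runners ate the high-fat diet, and no group received a glucocorticoid, so the name of the gene group describes earlier knowledge and not a treatment in these data.

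Glucocorticoids such as corticosterone bind the glucocorticoid receptor, which is held in the cytosol by heat shock proteins and then enters the nucleus and binds DNA. In skeletal muscle the receptor raises transcription of genes that slow growth signalling, favour protein breakdown and shift fuel use, and release of the hormone follows the time of day, feeding, stress and exercise. Fkbp5 encodes FKBP51, a co-chaperone that lowers the receptor's affinity for its hormone, and Tsc22d3 encodes GILZ, a leucine zipper protein with anti-inflammatory action. Klf9 and Klf15 are zinc finger transcription factors, of which Klf15 promotes breakdown of branched-chain amino acids, and Zbtb16 encodes the transcriptional repressor PLZF. Sgk1 is a kinase that acts on ion channels and FOXO factors, Ddit4 encodes REDD1, an inhibitor of mTORC1, and Cdkn1a encodes p21, an inhibitor of cyclin-dependent kinases.

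Upstream sequence is shown for 3 of the genes, chosen because their windows held the receptor's palindromic element or an E-box, the motif bound by clock and related bHLH factors. The sequences are RefSeq promoters on GRCm38.p6, read 5′ to 3′ on the gene's strand, and each covers the 250 bases before the annotated start. Promoters were found for 7 of the 8 genes, 15 in all, and Zbtb16 had no entry. Capitals mark CACGTG in Fkbp5 (chr17:28486150-28486399, minus strand) and in Klf15 (chr6:90462326-90462575, plus strand), and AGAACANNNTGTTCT in the fifth of 6 Sgk1 promoters (chr10:21993640-21993889, plus strand).
Fkbp5: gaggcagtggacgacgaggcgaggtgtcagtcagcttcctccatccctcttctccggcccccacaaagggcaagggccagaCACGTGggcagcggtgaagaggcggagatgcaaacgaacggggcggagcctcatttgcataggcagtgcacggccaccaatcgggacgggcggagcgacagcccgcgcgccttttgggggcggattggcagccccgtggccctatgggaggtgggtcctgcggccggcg
Klf15: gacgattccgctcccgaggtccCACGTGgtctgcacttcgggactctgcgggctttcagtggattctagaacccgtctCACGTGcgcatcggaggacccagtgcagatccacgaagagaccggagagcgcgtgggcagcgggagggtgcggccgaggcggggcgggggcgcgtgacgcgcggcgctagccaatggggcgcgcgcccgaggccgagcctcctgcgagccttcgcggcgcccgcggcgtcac
Sgk1: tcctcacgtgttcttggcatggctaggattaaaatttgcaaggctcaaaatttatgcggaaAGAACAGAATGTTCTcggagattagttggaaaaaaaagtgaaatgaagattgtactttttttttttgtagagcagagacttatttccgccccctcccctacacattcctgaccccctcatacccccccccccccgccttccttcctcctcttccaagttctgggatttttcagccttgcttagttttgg
Both strands were searched over the 250 bases before the start and 50 bases from the start on, which are not printed. The start base counts as position 0. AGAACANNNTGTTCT was matched in 1 of the 15 promoters, that of Sgk1, at -189 to -175, while 0.00913% of all 32851 promoters held it. Its hexamer AGAACA, which overlaps it, lay in promoters of 2 of the 7 genes, Tsc22d3 and Sgk1, against 21.3% of all genes with a promoter, and its spaced core ACANNNTGT lay in 6.85% of all promoters. CACGTG occurred in 3 of the 7, Fkbp5, Klf15 and Sgk1, against 8.09% of all genes with a promoter. CACGTG was found 1 time in Fkbp5 at -169 and 3 times in Klf15 at -228, -172 and -3. The last of these ran from -3 to 2, past the end of the printed stretch, and is not in capitals. In the same Sgk1 promoter CACGTG was found 1 time at -246, where the letters are left in lower case. A match is a description of these letters and not a binding site.

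On GRCm39, the build of the count table's chromosome records, Fkbp5 (gene ID 14229) spans chr17:28617727-28705123 (minus strand), Tsc22d3 (gene ID 14605) chrX:139440277-139501271 (minus), Klf9 (gene ID 16601) chr19:23118590-23145493 (plus) and Klf15 (gene ID 66277) chr6:90437785-90468785 (plus). Zbtb16 (gene ID 235320) spans chr9:48563097-48747525 (minus), Sgk1 (gene ID 20393) chr10:21758083-21875802 (plus), Ddit4 (gene ID 74747) chr10:59785497-59787592 (minus) and Cdkn1a (gene ID 12575) chr17:29309953-29319696 (plus). All are protein-coding, and counts are for whole genes. Other annotated features overlap 4 of them: Gm22146 overlaps Fkbp5 at 0.455 CPM, Gm32280 overlaps Zbtb16 at 4.17, Mir1192 overlaps Klf9 at 0.140 and Gm46215 overlaps Sgk1 at 0.00857, each far below its host gene, and whether counting used strand was not given in the sources used here.

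The libraries held 13060090 to 27981702 counts on genes. Muscle fibre markers summed to 89973 to 179928 CPM, counts scaled to the library's size, per mouse, and no marker of fibres, adipocytes, blood, Schwann, immune or endothelial cells was at 0 throughout a group. The share of counts on rRNA-linked features was high, 2.01 to 3.81%, in all 6 NFD-C and in HFD-C mice 1 to 4, and low, 0.404 to 1.02%, in HFD-C mice 5 and 6 and in all 24 runners. Running and this share were therefore nearly confounded in comparisons with HFD-C, and values with the share as a covariate and in low-share libraries alone are given where they differed. In bulk muscle, fewer cells of a type and less RNA per cell cannot be told apart.

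Expressed per kilobase of gene length, the mean level over the 36 mice was highest for Tsc22d3 at 78.7 CPM per kilobase and Sgk1 at 69.0, followed by Klf9 at 50.9, Ddit4 at 44.0 and Fkbp5 at 35.3. Zbtb16 at 17.6, Cdkn1a at 7.98 and Klf15 at 7.74 were the least abundant. Variation among mice of the same group had another order. The within-group SD of log2 CPM was 1.15 for Ddit4, 0.795 for Cdkn1a and 0.654 for Fkbp5, at percentiles 99.6, 98.1 and 95.9 of the 12053 genes measured across the 36 mice, whose median was 0.297. The SD was 0.441 for Zbtb16, 0.378 for Tsc22d3, 0.377 for Klf15, 0.328 for Sgk1 and 0.260 for Klf9. The highest of 36 mice exceeded the lowest 20.4 times for Ddit4, 19.2 times for Cdkn1a and 13.02 times for Fkbp5, but 2.16 times for Klf9.

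**Figure D1:**
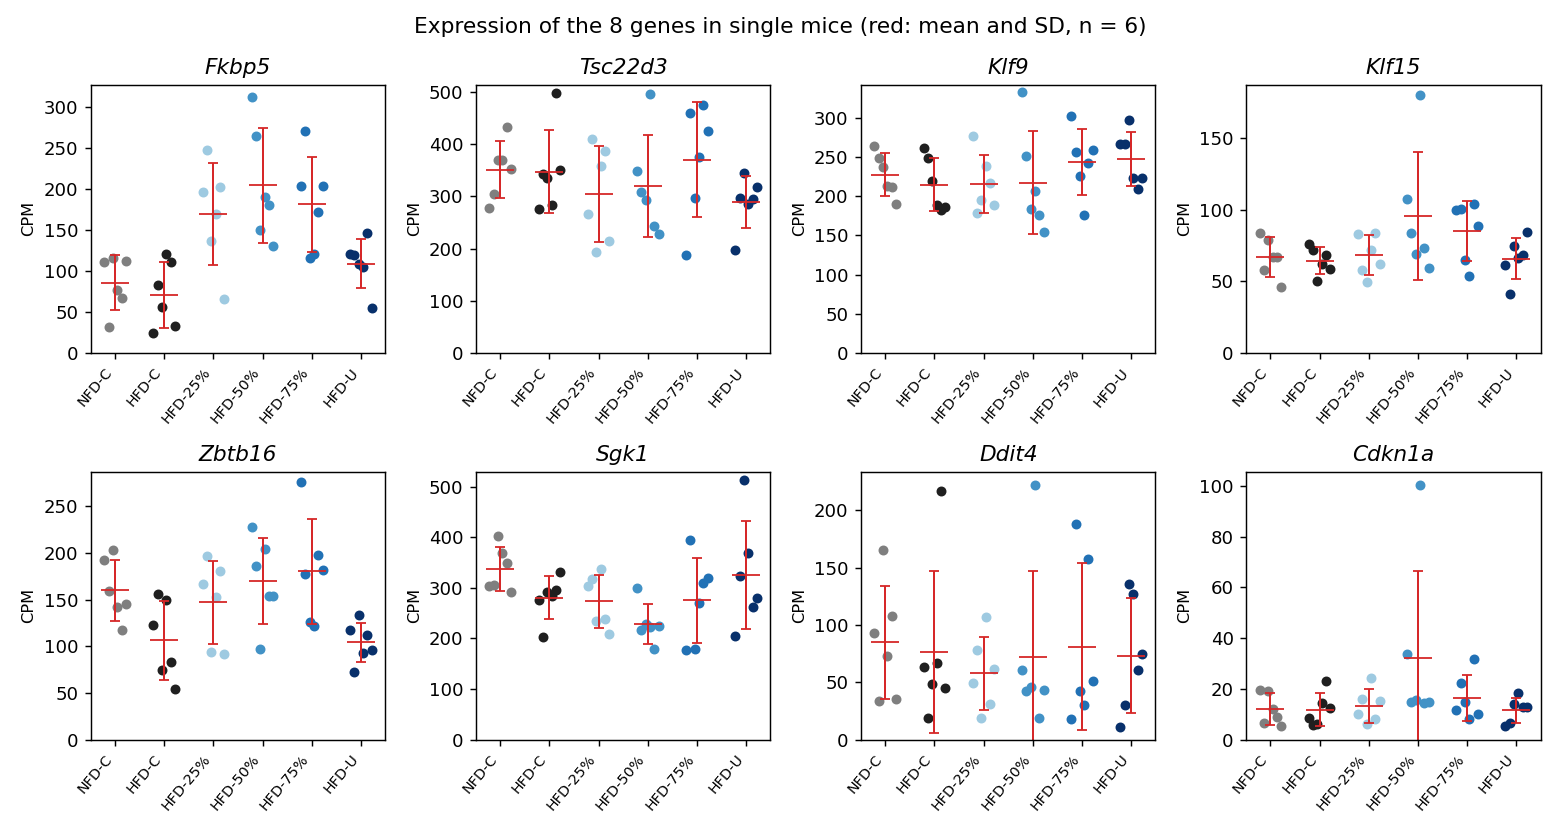
Each panel shows 1 gene, with the level in CPM (linear axis from 0) against the 6 treatment groups, a grey point for each mouse and the mean and SD of 6 mice in red. Fkbp5 is highest in the 3 restricted running groups, while the Ddit4 and Cdkn1a panels are dominated by single mice, such as HFD-50% mouse 4 at 222 and 100.5 CPM.

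Fkbp5 had the smallest p of the 8 genes when running distance was tested over the sedentary and running mice on the high-fat diet, and all 4 running groups had higher means than both sedentary groups. In HFD-C the lowest mouse was at 24.04 CPM, the median at 69.1 and the highest at 121, with a mean of 71.2 ± 40.4 (SD, n = 6). In NFD-C the range was 31.1 to 116 with a median of 94.1 and a mean of 85.8 ± 33.6. Sedentary mice on both diets therefore covered nearly the same range. HFD-25% mice lay between 66.1 and 247 with a median of 183, HFD-50% mice between 131 and 313 with a median of 186, and HFD-75% mice between 116 and 271 with a median of 188. HFD-U mice lay between 54.4 and 146 with a median of 115. The means were 170 ± 62.7, 205 ± 70.2, 181 ± 58.5 and 109 ± 30.5 CPM in that order of distance. Every HFD-50% mouse was above every HFD-C mouse, the only case among the 8 genes in which a running group and HFD-C did not overlap (0.792% of all genes tested in that comparison did so, and 0.377%, 0.264% and 0.308% against HFD-C in HFD-25%, HFD-75% and HFD-U).

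Against HFD-C, Fkbp5 was 2.87-fold higher in HFD-50% (log2 fold change 1.52, SE 0.359, 95% interval 0.76 to 2.28, unadjusted p = 0.000664). For HFD-25% the log2 fold change was 1.26 (SE 0.375, unadjusted p = 0.00427), where 5 of 6 mice exceeded all HFD-C mice, and for HFD-75% it was 1.35 (SE 0.354, unadjusted p = 0.00162), where 4 of 6 did. In HFD-U it was 0.62 with an interval from -0.11 to 1.34 (unadjusted p = 0.0898), and in NFD-C 0.27 (unadjusted p = 0.478). After Benjamini-Hochberg adjustment over all genes, edgeR's quasi-likelihood test gave 0.134, 0.427 and 0.397 for HFD-50%, HFD-25% and HFD-75%, none under 0.05. For HFD-50% the adjusted p ranged from 0.00308 with DESeq2 to 0.425 in the low-share libraries. When the rRNA-linked share entered as a covariate, the log2 fold change was 1.01 for HFD-25%, 1.05 for HFD-75% and 1.32 for HFD-50% (unadjusted p = 0.109, 0.0696 and 0.0199). These comparisons share the HFD-C mice. In HFD-50% and HFD-C the summed adipocyte markers were 149 to 455 and 160.3 to 382 CPM (medians 275 and 182). Most of each sum was Fabp4, with means of 278 and 214 CPM. Of the other markers, Adipoq (2.36 and 4.54 CPM), Plin1, Cidec, Lep and Retn had lower means in HFD-50%, and Cfd a higher one (5.97 and 5.24). The sum is therefore no measure of fat cells alone. The 10 clock genes that peak with Dbp summed to 591 to 899.5 and 672 to 1083 CPM (medians 696 and 927). The hour of tissue collection was not given in the sources used here, and the part of fat cells or of the time of day in the result was not tested.

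HFD-U gave a reference among runners, all of low rRNA-linked share. Fkbp5 was above HFD-U by 0.64 on the log2 scale in the HFD-25% group (SE 0.267, unadjusted p = 0.0299), by 0.90 in HFD-50% (SE 0.236, unadjusted p = 0.00162) and by 0.73 in HFD-75% (SE 0.229, unadjusted p = 0.00582). In HFD-50%, 5 of 6 mice were above all HFD-U mice, and in each of the other groups 4 of 6. The HFD-25% difference missed 0.05 without HFD-25% mouse 1, 2 or 5 or HFD-U mouse 6 (unadjusted p = 0.0540 to 0.0817). Adjusted over all genes with edgeR's quasi-likelihood F-test and Benjamini-Hochberg, the value for HFD-50% was 0.231.

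Across the 30 mice fed the high-fat diet, a linear and a quadratic term of distance were tested together. Of the 8 genes, 4 reached an unadjusted p of 0.05, against 12.2% of all genes, and 1, Fkbp5, reached it after adjustment, against 0.683%. The Fkbp5 curve was bell-shaped with a turning point at 55.2% of the unrestricted distance (unadjusted p = 4.15e-05). Its adjusted p was 0.0178 by edgeR's quasi-likelihood F-test and the Benjamini-Hochberg correction, and over the alternatives it ran from 0.000255 with DESeq2 to 0.9998 with a linear term alone. It was 0.0895 with the rRNA-linked share as covariate, 0.121 in low-share libraries alone and 0.05005, just past the threshold, without HFD-C mouse 3. The study singled out Fkbp5 from these same mice, so its direction here is not independent evidence. Among the 24 runners alone the unadjusted p was 0.00643, with a turning point at 52.1% of the unrestricted distance, and 4 of the 8 genes reached 0.05, against 8.49% of all genes. Zbtb16 had a smaller p than Fkbp5 there (unadjusted p = 0.00456, turning point 55.5%), followed after Fkbp5 by Cdkn1a (unadjusted p = 0.0216) and Klf15 (unadjusted p = 0.0368). After adjustment 0 of the 8 did so with edgeR and 0 with DESeq2, where 0.0419% of genes did with edgeR.

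Zbtb16 had the second smallest p in the dose response (unadjusted p = 0.00132, edgeR's adjusted p = 0.0919 by Benjamini-Hochberg, turning point 51.6%). HFD-C mice ranged from 54.1 to 156 CPM with a median of 103, and HFD-U mice from 72.7 to 133 with a median of 104. HFD-25% mice ranged from 91.2 to 197 with a median of 159, HFD-50% mice from 97.0 to 228 with a median of 169.9, and HFD-75% mice from 122 to 276 with a median of 179.9. NFD-C mice ranged from 117 to 203 with a median of 152. The groups overlapped, with HFD-C and HFD-U at one level and the other groups above it. Against HFD-C the log2 fold change was 0.76 in HFD-75% (SE 0.258, unadjusted p = 0.00957), 0.68 in HFD-50% (SE 0.257, unadjusted p = 0.0178) and 0.46 in HFD-25% (unadjusted p = 0.0982).

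For HFD-U the Zbtb16 value against HFD-C was -0.03 (unadjusted p = 0.896), and its sign turned with the library set. In the low-share libraries alone, with HFD-C mice 5 and 6 at 82.7 and 54.1 CPM as the only sedentary mice, it was 0.60 (unadjusted p = 0.0259), and the values for the restricted groups were 1.11, 1.32 and 1.40 from the shortest to the longest distance. All runners had low-share libraries, but the share was 0.560 to 1.02% in HFD-50% and 0.470 to 0.622% in HFD-U. Within the runners Zbtb16 exceeded its HFD-U level by 0.50 in the HFD-25% group (unadjusted p = 0.0240), by 0.71 in HFD-50% (unadjusted p = 0.00201) and by 0.80 in HFD-75% (SE 0.193, unadjusted p = 0.000879). For the last, edgeR's quasi-likelihood test gave an adjusted p of 0.434 with Benjamini-Hochberg correction. The HFD-25% value missed 0.05 without HFD-25% mouse 2 or 5 or HFD-U mouse 2 (unadjusted p = 0.0557 to 0.0663).

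The diet comparison, NFD-C against HFD-C among sedentary mice, had 1 of the 8 genes at an unadjusted p of 0.05, against 4.12% of all genes, and 0 after adjustment with edgeR or DESeq2, where 0% of genes passed with edgeR. That gene was Zbtb16, higher in NFD-C by 0.59 (SE 0.229, unadjusted p = 0.0200). The difference was 0.51 without NFD-C mouse 3 (unadjusted p = 0.0524) and 0.31 with the rRNA-linked share as covariate (unadjusted p = 0.141). Sgk1 came next, at 293 to 402 CPM in NFD-C and 203 to 332 in HFD-C (log2 fold change 0.27, unadjusted p = 0.0523).

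Klf15 differed in the 2 middle distances. HFD-C mice lay between 50.0 and 75.9 CPM with a median of 65.4, and NFD-C, HFD-25% and HFD-U mice had medians of 66.9, 67.1 and 67.3. HFD-50% mice lay between 59.1 and 180.3 with a median of 78.5, and HFD-75% mice between 53.6 and 104 with a median of 94.3. The highest HFD-50% value belonged to mouse 4, and the next was 108. Against HFD-C the log2 fold change was 0.57 in HFD-50% (SE 0.233, unadjusted p = 0.0261) and 0.41 in HFD-75% (SE 0.163, unadjusted p = 0.0240). Without HFD-50% mouse 4 the former was 0.28 (unadjusted p = 0.0812), and it also missed 0.05 without HFD-C mouse 3. The HFD-75% value missed 0.05 without HFD-C mouse 3 or HFD-75% mouse 1, 2 or 5, and with the share as a covariate (unadjusted p = 0.0795). The dose response over 30 mice gave an unadjusted p of 0.0254, and 0.0829 without HFD-50% mouse 4.

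Cdkn1a was at 5.91 to 23.3 CPM in HFD-C mice, 6.10 to 24.5 in HFD-25% mice, 7.93 to 31.7 in HFD-75% mice and 5.23 to 18.5 in HFD-U mice. In HFD-50% the lowest mouse was at 14.4 CPM, the median at 15.3 and mouse 4 at 100.5, with the next highest at 33.6. The lowest HFD-50% mouse thus lay above the HFD-C median of 10.4, and 2 of 6 lay above all HFD-C mice. The log2 fold change for HFD-50% was 1.48 against HFD-C (SE 0.511, unadjusted p = 0.0110) and 1.49 against HFD-U (unadjusted p = 0.00935). Without mouse 4 these were 0.67 (unadjusted p = 0.0695) and 0.68 (unadjusted p = 0.0444), and the dose response over 30 mice moved from an unadjusted p of 0.0128 to 0.131. With the rRNA-linked share as covariate the value against HFD-U was 0.38 (unadjusted p = 0.415).

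**Figure D2:**
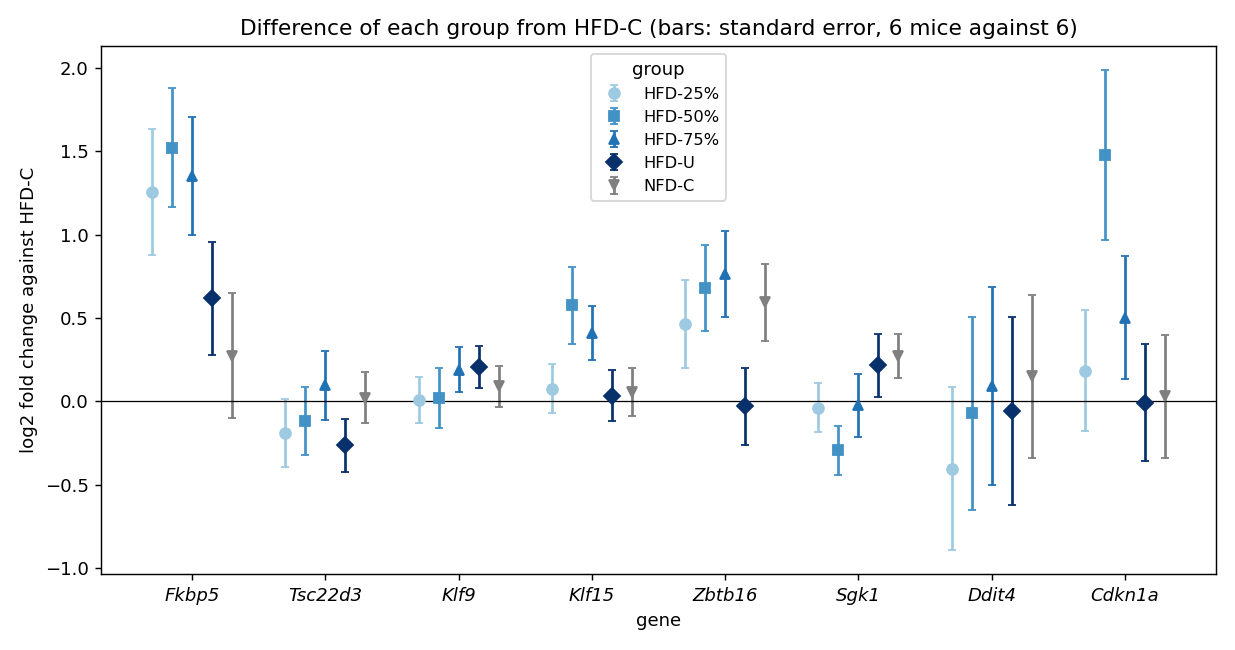
The log2 fold change against HFD-C (vertical axis) is drawn for each of the 8 genes and 5 groups, as a point with its standard error from the edgeR fit of 6 mice against 6. Fkbp5 lies at 1.26, 1.52 and 1.35 in the restricted groups and at 0.62 in HFD-U, while most values of Tsc22d3, Klf9, Sgk1 and Ddit4 lie within 2 standard errors of 0.

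In the main edgeR test Tsc22d3, Klf9, Sgk1 and Ddit4 missed an unadjusted p of 0.05 in every comparison with HFD-C. For HFD-U, however, the fit blocked on the mouse number and the one with the rRNA-linked share as covariate both passed Klf9 (unadjusted p = 0.0178 and 0.0223) and Tsc22d3 (unadjusted p = 0.0377 and 0.0103). Sgk1 also passed under an alternative in HFD-50% (log2 fold change -0.45 to -0.29 over the alternatives) and in NFD-C (0.26 to 0.36). Tsc22d3 medians were 339 CPM for HFD-C, 312 for HFD-25%, 300.5 for HFD-50%, 400.2 for HFD-75% and 296 for HFD-U, with single mice from 188 to 498, and its dose response had an unadjusted p of 0.844. Klf9 means stayed between 215 and 248 CPM in the 6 groups, with a dose response at an unadjusted p of 0.225. Ddit4 group medians were 44.9 to 82.9 CPM and single mice 10.9 to 222 (dose response, unadjusted p = 0.949). The Ddit4 log2 fold change of HFD-50% against HFD-C was -0.07 with a 95% interval of -1.31 to 1.16, so that differences within that interval could not be resolved with these mice.

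Sgk1 had the opposite shape to Fkbp5, lowest at the middle distance, but its dose response missed the threshold (unadjusted p = 0.0775, turning point 43.0%). HFD-50% mice lay between 180.1 and 299.95 CPM with a median of 223, HFD-C mice between 203 and 332 with a median of 288, and HFD-U mice between 205 and 513 with a median of 302. Against HFD-U the HFD-50% value was -0.51 (SE 0.194, unadjusted p = 0.0188), and -0.34 without HFD-U mouse 3, the mouse at 513 CPM (unadjusted p = 0.0624). Against HFD-C it was -0.29 (unadjusted p = 0.0658).

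In counts, 1 of the 8 genes reached an unadjusted p of 0.05 in HFD-25% against HFD-C, against 6.98% of all genes, 4 in HFD-50% against 10.7% (all 4 higher, where 5.8% of genes were higher), and 3 in HFD-75% against 5.47%. In HFD-50% they were Fkbp5, Zbtb16, Klf15 and Cdkn1a, and in HFD-75% Fkbp5, Zbtb16 and Klf15. After adjustment 0 of the 8 passed in these 3 comparisons with edgeR, where 0.0082%, 0% and 0% of genes did, and DESeq2 gave 0, 1 (Fkbp5) and 0. The median log2 fold change of the 8 genes was 0.04, 0.30 and 0.30 in the 3 groups, beside -0.01, 0.01 and -0.00 over all genes tested. Against HFD-U, 2 genes passed the unadjusted threshold in HFD-25% (5.1% of all genes), 5 in HFD-50% (12.4%), and 2 among HFD-75% mice (5.57%). After adjustment edgeR gave 0 in these 3 comparisons, where 0%, 0.00844% and 0% of genes passed, and DESeq2 gave 0, 2 and 1. In HFD-50%, Fkbp5, Zbtb16, Klf15 and Cdkn1a were higher and Sgk1 lower than in HFD-U, as were 7.08% and 5.34% of all genes. Klf15 was the nearest of these to the limit, at 0.54 in HFD-50% against HFD-U (unadjusted p = 0.0470). That value was 0.25 without HFD-50% mouse 4 (unadjusted p = 0.178) and 0.09 with the rRNA-linked share as covariate (unadjusted p = 0.740).

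HFD-U against HFD-C had 0 of the 8 genes at an unadjusted p of 0.05 by edgeR, against 5.46% of all genes, and 0 after adjustment, where 0% passed. DESeq2 also gave 0 for both. In this comparison the deviations of same-numbered mice had r above 0.1 in all 6 pairs (0.135 to 0.534). Pairs of different numbers were not compared, so pairing is not established. A fit blocked on the mouse number had 3 genes past the unadjusted threshold. These were Fkbp5 at 0.78 (unadjusted p = 0.00896), Klf9 at 0.21 (unadjusted p = 0.0178) and Tsc22d3 at -0.26 (unadjusted p = 0.0377). The 5.46% belongs to the fit without the block, and no share of all genes is given for the blocked fit, so the 3 cannot be read against one. Tsc22d3 was at -0.57 and Klf9 at 0.43 with the rRNA-linked share as covariate (unadjusted p = 0.0103 and 0.0223). Fkbp5 also passed without HFD-C mouse 4, HFD-C mouse 5 or HFD-U mouse 6 (unadjusted p = 0.0277 to 0.0410) and with no minimum count (unadjusted p = 0.0280), while its value fell to 0.41 without mice numbered 1 (unadjusted p = 0.218) and to 0.43 with the share as covariate (unadjusted p = 0.429).

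Ordered by group mean, Fkbp5 ran HFD-50%, HFD-75%, HFD-25%, HFD-U, NFD-C and HFD-C, and Zbtb16 ran HFD-75%, HFD-50%, NFD-C, HFD-25%, HFD-C and HFD-U. Klf15 and Cdkn1a both began with HFD-50%, HFD-75% and HFD-25%. Sgk1 ran NFD-C, HFD-U, HFD-C, HFD-75%, HFD-25% and HFD-50%. Exact permutation tests over the 924 splits of each neighbouring pair of groups, 40 in all, found 0 at 0.05, and the smallest two-sided p was 0.106. Neighbours in each order were thus not separated by this test at 6 mice a group. The pairs were chosen as neighbours from the means of these same mice, which favours small differences. The result therefore says nothing of groups farther apart in the order. For Fkbp5 in HFD-25% and HFD-U the exact permutation p was 0.126, whereas the edgeR fit of the same pair had reached an unadjusted p of 0.0299, so the order of these groups depends on the test.

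**Figure D3:**
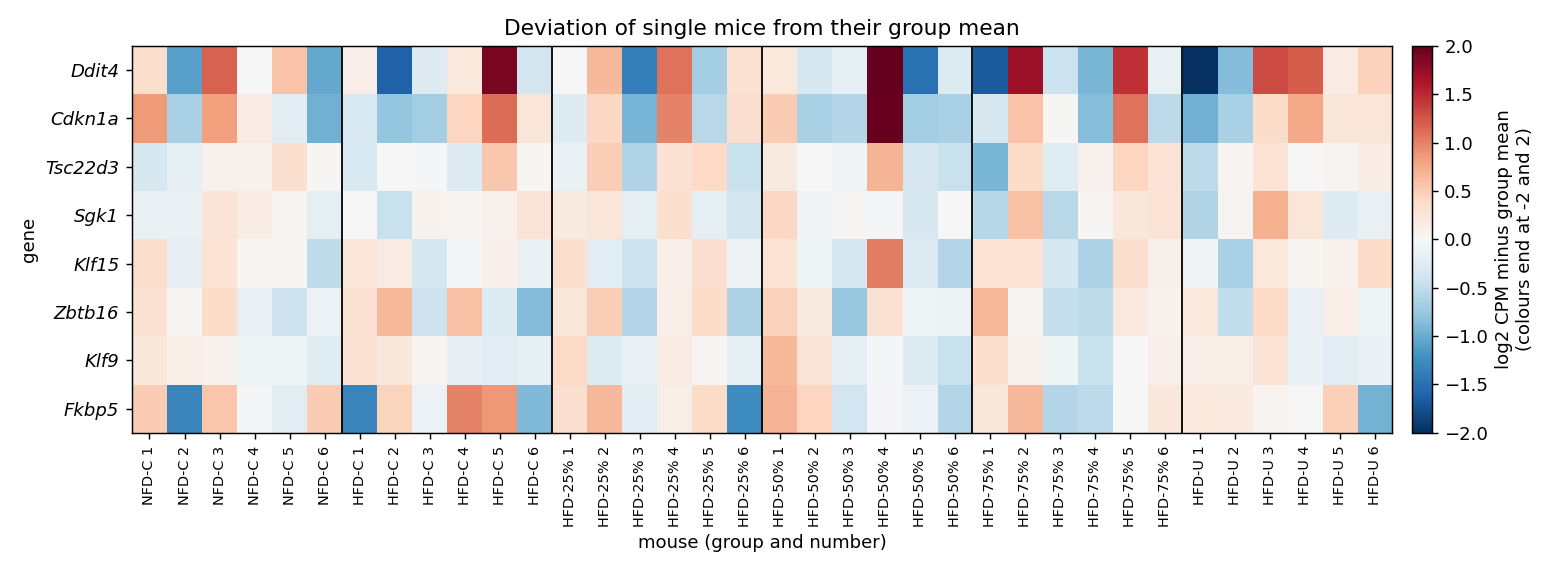
Rows are the 8 genes and columns the 36 mice, ordered by group, and the colour gives log2 CPM minus the group mean (red above, blue below, colours ending at -2 and 2). Ddit4 and Cdkn1a share their dark columns, such as HFD-C mouse 5 and HFD-50% mouse 4, while Klf9 stays pale throughout.

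Single mice were next compared with the mean of their own group, which asks whether a mouse high for one gene was also high for another, apart from diet and distance. Over 36 mice, 26 of the 28 pairs of genes had a Pearson r above 0, with a median of 0.27. Of the 28 pairs, 12 reached an adjusted p of 0.05 in a permutation test of 100000 resamples within groups with Benjamini-Hochberg correction, all with r above 0. Pairs of other genes were not counted, so whether these counts exceed those of other gene sets was not tested. Ranked by r among 12053 genes, the partners in these 12 pairs ran from rank 1 (Ddit4 for Sgk1) to rank 1729 (Klf15 for Klf9). For some genes, many genes outside the group were therefore as close. Ddit4 and Cdkn1a were the closest pair (r = 0.86, Spearman's rho 0.89, permutation p = 1e-05, the smallest these resamples can give, adjusted 0.00028). Their r was 0.84 without the 2 mice farthest from the Ddit4 median, so it did not rest on those mice. Ddit4 also went with Tsc22d3 (r = 0.67, rho 0.62, adjusted permutation p = 0.0007) and Sgk1 (r = 0.67, rho 0.63, adjusted permutation p = 0.00112), and Tsc22d3 with Sgk1 (r = 0.61, rho 0.60, adjusted permutation p = 0.00205).

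Klf15 and Zbtb16 formed a further pair (r = 0.59, rho 0.63, adjusted permutation p = 0.00112, and r = 0.59 without 2 mice). Klf15 also went with Cdkn1a (r = 0.67, rho 0.62, adjusted permutation p = 0.00112) and Ddit4 (r = 0.52, rho 0.52, adjusted permutation p = 0.0113). Fkbp5 had 1 partner at the adjusted threshold, Zbtb16 (r = 0.51, rho 0.57, adjusted permutation p = 0.0179). Its r was 0.68 without the 2 mice farthest from the Fkbp5 median, 0.60 over 30 mice without those numbered 1, and 0.68 over 26 low-share libraries. Fkbp5 and Ddit4, by contrast, had r = 0.17, and Klf9 had r = -0.01 with Ddit4 and -0.04 with Tsc22d3. The count of pairs was 10 without mice numbered 1 and 11 in low-share libraries. Klf9 and Klf15 (r = 0.49) and Sgk1 and Cdkn1a (r = 0.42) were lost in both, and Klf9 and Zbtb16 (r = 0.53) without mice numbered 1. Tsc22d3 and Klf15 were gained without mice numbered 1 (r = 0.65, adjusted permutation p = 0.00499). Fkbp5 and Klf9 were gained in low-share libraries (r = 0.48, adjusted permutation p = 0.0235).

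**Figure D4:**
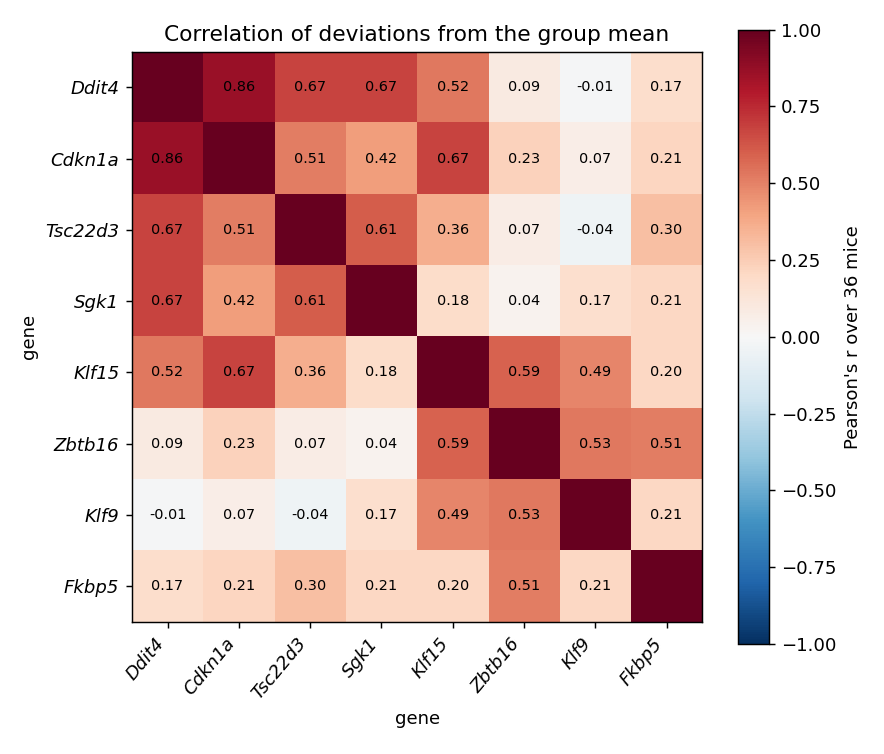
Each cell gives Pearson's r of 2 of the 8 genes over 36 mice after subtraction of group means, with red for r above 0 and blue for r below 0. Ddit4 is redder with Cdkn1a (0.86), Tsc22d3 (0.67) and Sgk1 (0.67) than with Klf15 (0.52), Klf15 reaches 0.67 with Cdkn1a, and the highest value of Fkbp5 is 0.51, with Zbtb16.

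Several mice were at an end of their group for more than 1 of the genes. HFD-50% mouse 4 was the highest of its group for Tsc22d3, Klf15, Ddit4 and Cdkn1a, and HFD-50% mouse 1 for Fkbp5, Klf9, Zbtb16 and Sgk1, so that 2 mice held every maximum of that group. HFD-C mouse 5 was the highest of its group for Tsc22d3, Ddit4 and Cdkn1a, and HFD-U mouse 3 for 5 of the genes, Fkbp5, Klf15 and Cdkn1a excepted. At the other end, NFD-C mouse 6, HFD-25% mouse 3, HFD-50% mouse 6, HFD-75% mouse 4 and HFD-U mouse 1 were each the lowest of their group for 4 genes.

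Among 12053 genes, those most like Fkbp5 in deviation from group means over the 36 mice were Ucp3, a mitochondrial uncoupling protein (r = 0.84), and Foxo1, a transcription factor of the fasting response (r = 0.82). Tfcp2l1 (r = 0.76), Prkcd (r = 0.75), the lipid droplet gene Plin4 (r = 0.75) and the insulin receptor phosphatase gene Ptpn1 (r = 0.75) came next, and Zbtb16 held rank 112. For Ddit4 the closest gene was Cebpd, a glucocorticoid-induced transcription factor (r = 0.91), followed by Cdkn1a, and for Cdkn1a these were Ddit4 and Cebpd (r = 0.85). Klf15 was closest to Sesn1, a sestrin that restrains mTORC1 (r = 0.85), and Gucd1 (r = 0.81). Zbtb16 was closest to Kdm4a and the ubiquitin ligase gene Cblb (both r = 0.81), Klf9 to Dag1 and Sel1l (both r = 0.88), Tsc22d3 to Sorbs3 and 4930481A15Rik (r = 0.82 and 0.81), and Sgk1 to Ddit4 and Slc25a25 (r = 0.67 and 0.66). These values describe likeness over mice that share libraries and groups, and no test was attached to them.

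Nr3c1, which encodes the glucocorticoid receptor, averaged 77.7 ± 14.0 CPM in HFD-C and 80.2 ± 24.8 in HFD-50% (SD, n = 6), and its dose response had an unadjusted p of 0.956. Nr3c2, the mineralocorticoid receptor gene, averaged 8.30 ± 0.726 CPM in HFD-C, 5.67 ± 1.34 in HFD-50% and 9.20 ± 2.83 in HFD-U. It was lower in HFD-50% than in HFD-C by 0.55 on the log2 scale (log2 fold change -0.55, unadjusted p = 0.00546), with 5 of 6 mice below all HFD-C mice. Hsd11b1, whose enzyme regenerates active hormone, averaged 10.7 CPM in HFD-C and 7.45 in HFD-50%, and H6pd, whose enzyme supplies its cofactor, 66.8 and 75.3. Hsd11b2, whose enzyme inactivates the hormone, averaged 0.0305 to 0.151 CPM, with at least 1 mouse at 0 in each group, and was below the minimum count. Of the 4 genes tested, 1 passed the unadjusted threshold in HFD-50% against HFD-C, where 10.7% of all genes did. In HFD-75% 2 passed against 5.47%, Nr3c2 at -0.45 (unadjusted p = 0.0397) and Hsd11b1 at -0.50 (unadjusted p = 0.0448). In sedentary NFD-C mice 2 passed against 4.12%, H6pd at 0.42 (unadjusted p = 0.0156) and Nr3c2 at -0.45 (unadjusted p = 0.0180). Nr3c2 averaged 6.06 CPM in NFD-C, so that a lower level than in HFD-C was also seen without running.

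Of 12 genes for chaperones and co-chaperones of the receptor, 1 passed the unadjusted threshold in HFD-50% against HFD-C, a share below the 10.7% of all genes. This was Dnaja1, an HSP40 gene, at -0.35 (unadjusted p = 0.00547), and the list's median was -0.11 beside 0.01 over all genes.

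A list of 30 other genes known to be induced by glucocorticoids in various tissues was counted beside the 8. Of 29 tested, 17 passed the unadjusted threshold in HFD-50% against HFD-C (10.7% of all genes), 15 of them higher and 2 lower, with a median log2 fold change of 0.69 against 0.01 over all genes. The lower pair were Per1 (-0.49) and Dusp1 (-0.76), both also immediate responders to other stimuli. For HFD-75% 10 passed (9 higher) against 5.47% of all genes, for HFD-25% 5 (4 higher) against 6.98% and for HFD-U 3 (2 higher) against 5.46%, with medians of 0.30, 0.20 and 0.04. Leaving out HFD-50% mouse 4 left 12 of 29 at the threshold and a median of 0.21, against 9.84% of all genes. The low-share libraries alone gave 9 of 29, but no share of all genes is given for that fit, so this count cannot be read against one. HFD-50% mouse 4 was at 654 CPM for Mt1 and 352 for Mt2, the metallothioneins, where the next HFD-50% mouse was at 65.1 and 33.8. It was also the highest for Cebpd at 474 CPM (next 108) and for Sesn1 at 200 (next 78.0).

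**Figure D5:**
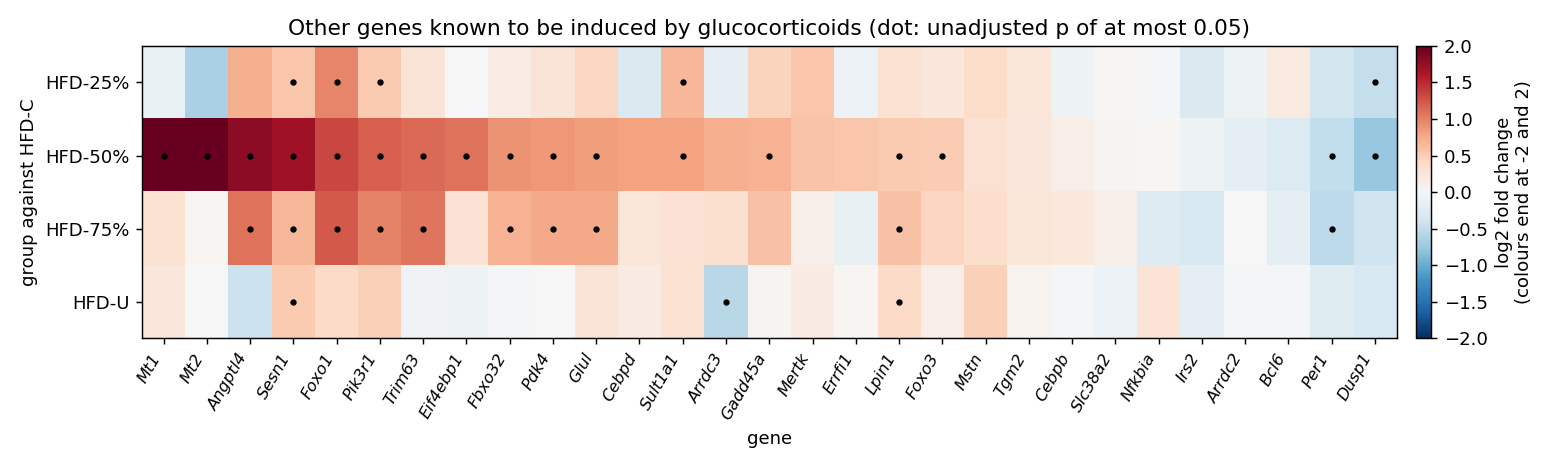
Columns are 29 other genes known to be induced by glucocorticoids, rows the 4 running groups, and the colour gives the log2 fold change against HFD-C (colours ending at -2 and 2), with a dot at an unadjusted p of at most 0.05. HFD-50% has 17 dots, HFD-75% 10, HFD-25% 5 and HFD-U 3.

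In the dose response over 30 mice, 17 of the 29 passed the unadjusted threshold and 3 the adjusted one, against 12.2% and 0.683% of all genes. Angptl4, an inhibitor of lipoprotein lipase, averaged 7.09 CPM in HFD-C, 24.2 in HFD-50% and 5.19 in HFD-U (edgeR's adjusted p = 0.00334 by Benjamini-Hochberg). Pik3r1, the regulatory subunit of PI3-kinase, averaged 32.2, 73.5 and 44.7 CPM (adjusted p = 0.0386), and Foxo1 33.6, 84.5 and 44.0 CPM (adjusted p = 0.0400). Sesn1 (22.1, 71.0 and 31.5 CPM, adjusted p = 0.0739) and the glutamine synthetase gene Glul (497, 883 and 596 CPM, adjusted p = 0.127) had the same order of these 3 groups as Pik3r1 and Foxo1. For Angptl4, HFD-U and not HFD-C was the lowest of the 3. Without HFD-50% mouse 4 the HFD-50% values against HFD-C were 1.83 for Angptl4, 1.21 for Pik3r1, 1.13 for Foxo1, 1.04 for Sesn1 and 0.68 for Glul, all at an unadjusted p under 0.05. The study singled out Foxo1, Pik3r1 and Sesn1 from these same mice, so their direction is not independent evidence.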

How the data were processed

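The authors sequenced polyadenylated RNA as paired-end reads, aligned them with HISAT2 2.0.5 and deposited whole-number read counts per gene from featureCounts 1.5.0-p3, with a column of gene lengths beside them. The submitters' processing notes name mm10, while the chromosome records in the table are those of GRCm39. All 36 columns were used, and 0 columns were left out.

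Counts were scaled by TMM and tested with edgeR 4.0.16 in R 4.3.3 (quasi-likelihood F-test) keeping genes whose mean count reached 25. Each fit took 2 groups of 6 mice, or 30 or 24 mice with distance as a linear plus a quadratic term. P-values of a fit were corrected over all its genes after Benjamini and Hochberg. Calls at an unadjusted p of at most 0.05, the study's rule for its gene counts, are given beside those at an adjusted p of at most 0.05. CPM are TMM-scaled, and 0.5 was added before log2. Levels, correlations (100000 resamples) and exact permutation tests used Python 3.11.15, numpy 2.4.6 and scipy 1.17.1. The fits were tested on simulated counts.

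The alternatives were DESeq2 1.42.0, RLE size factors, no minimum count, a block for the mouse number (replicate block), 1 fit over all groups, the log2 rRNA-linked share as a covariate, low-share libraries alone (split at the widest gap of the log share), leaving out mice numbered 1, leaving out each mouse, and for dose the groups as a factor or a linear term. The 8 genes, the gene lists and the tests were chosen with earlier results of these data known. The genes named are the 8, the 5 receptor genes, up to 5 of the other glucocorticoid-induced genes and up to 3 of each other list by smallest p in the dose response over 30 mice, and the genes closest in pattern (6 for Fkbp5, 2 for each other). Cebpd, Mt1, Mt2, Per1, Dusp1, Gadd45a and Sesn1 were named beyond this rule, or in a further place, after their values were seen. The labels do not say whether a mouse number marks a litter or day. Same-numbered mice were counted as deviating together where r was above 0.1. This held in all 6 pairs for HFD-U against HFD-C (r = 0.135 to 0.534) and in 1 to 5 of 6 pairs elsewhere. Pairs of different numbers were not compared, so these values cannot establish a block. Mice numbered 1 correlated across groups (mean r = 0.481). Replicates of a group differed by more than sampling noise (chi-square per degree of freedom 13.4 to 162).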

Additional observations from a re-analysis of the deposited data

Results flagged for a closer look

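The 8 genes in 6 groups gave 48 sets of 6 mice, and in 4 of them 1 mouse stood apart on the linear CPM scale. Its gap to the next exceeded Dixon's 95% limit as a share of the group's range. For normally distributed values chance flags about 1 in 20 groups, a rate that need not hold for CPM. All 4 flags were high values, and the limit was not applied to log2 levels, where high values stand out less. HFD-C mouse 5 was at 498 CPM for Tsc22d3, with the next mouse at 350.2, and at 217 CPM for Ddit4, with the next at 66.7. HFD-50% mouse 4 was at 222 CPM for Ddit4, with the next at 60.9, and at 100.5 CPM for Cdkn1a, with the next at 33.6.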

How the results depend on the processing

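Counts of the 8 genes that moved by over 1.5 times are given here, with the cause not tested. The share of all genes called can move with the setting as well. It is not set beside the counts of this section, so they are no result about the 8 genes alone. At an unadjusted p of 0.05, HFD-25% against HFD-C had 2 (1 in the main test) with no minimum count or in low-share libraries, HFD-50% against HFD-C 2 (4) in low-share libraries, and HFD-75% against HFD-C 1 (3) with the rRNA-linked share as covariate. HFD-U against HFD-C had 1 (0) with no minimum count and 3 with the share as a covariate or in low-share libraries, NFD-C against HFD-C 2 (1) with DESeq2, and HFD-25% against HFD-U 1 (2) in 1 fit over all groups or without mice numbered 1. HFD-50% against HFD-U had 2 (5) with the covariate, as had the dose response over 24 mice (4), which had 1 with a linear term, while the one over 30 mice had 0 (4) with a linear term.

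At an adjusted p of 0.05, HFD-50% against HFD-C had 1 (0) with DESeq2, no minimum count or 1 fit, and DESeq2 gave 2 (0) for HFD-50% and 1 (0) for HFD-75% against HFD-U. The dose response over 30 mice had 2 (1) with DESeq2 and 0 with the covariate, in low-share libraries, without mice numbered 1, with groups as a factor or with a linear term.

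With the mouse number as a block, the unadjusted count was 2 for HFD-25% and for NFD-C against HFD-C and 3 for HFD-U against HFD-C, the adjusted count for the dose over 30 mice was 2, and among single genes Zbtb16 in HFD-U turned to 0.047. The Zbtb16 value in HFD-U against HFD-C, -0.03 in the main test, was also reversed at 0.61 with the covariate and 0.60 in low-share libraries, and ran from -0.17 to 0.11 with 1 mouse left out.

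Leaving out 1 mouse at a time, the unadjusted count against HFD-C ran from 1 to 2 for HFD-25%, from 2 to 5 for HFD-50%, from 2 to 4 for HFD-75%, from 0 to 1 for HFD-U and from 0 to 2 for NFD-C, and from 0 to 2, 3 to 5 and 2 to 3 for the 3 restricted groups in turn against HFD-U. It ran from 2 to 5 over 30 mice and 2 to 4 over 24. HFD-50% mouse 4 gave the lowest HFD-50% count against HFD-C and both lowest dose counts. The adjusted count ran from 0 to 0 in every pair and over 24 mice, and over 30 mice from 0 without HFD-C mouse 3 to 2 without HFD-50% mouse 3.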

Other observations

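Of 29 genes from the same protein families, 7 passed an unadjusted p of 0.05 in HFD-50% against HFD-C, where 10.7% of all genes passed, 3 of them higher and 4 lower, with a median log2 fold change of -0.02 beside 0.01 over all genes. In the dose response over 30 mice 7 of the 29 passed the unadjusted and 2 the adjusted threshold, against 12.2% and 0.683% of all genes. The 3 with the smallest p were all Krüppel-like factors with a bell-shaped curve. Klf10, a TGF-beta responsive repressor, averaged 19.8 ± 5.30 CPM in HFD-C, 40.3 ± 16.3 in HFD-50% and 15.1 ± 4.72 in HFD-U (SD, n = 6). Klf3 averaged 11.9, 17.3 and 11.7 CPM, and Klf11 5.29, 9.02 and 5.41 CPM. By edgeR's quasi-likelihood F-test after Benjamini-Hochberg correction their adjusted p in the dose response was 0.0186, 0.0433 and 0.0688. All 6 HFD-50% mice, at 7.03 to 11.9 CPM, lay above all HFD-C mice, at 4.34 to 5.64 CPM, for Klf11. The study singled out Klf10 from these same mice.

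Lists around single genes of the group were counted in HFD-50% against HFD-C, where 10.7% of all genes passed the unadjusted threshold. Of 11 enzymes of branched-chain amino acid, proline and alanine metabolism linked to Klf15, 3 were higher, with a list median of 0.32. Bckdha and Bckdhb, subunits of the branched-chain keto acid dehydrogenase, were among them at 0.41 and 0.61 (unadjusted p = 0.0187 and 0.0316), and Prodh, proline dehydrogenase, was at 0.40 (unadjusted p = 0.0504). Without HFD-50% mouse 4 the Bckdhb value was 0.34 (unadjusted p = 0.118). Of 13 other targets of p53, which also induces Cdkn1a, 1 passed, the death receptor gene Fas at 0.84 (unadjusted p = 0.0182), and of 11 genes of the ATF4 stress response, which also induces Ddit4, 0 passed with edgeR at an unadjusted p of 0.05. In the dose response the smallest p values after Fas on the p53 list were those of Ccng1 (0.0967) and Perp (0.280). On the ATF4 list the smallest p values were those of Mthfd2 (0.111), Vldlr (0.139) and Chac1 (0.223). Among receptor chaperones they were 0.0367 for Dnaja1, 0.0635 for Hsp90aa1 and 0.0720 for Hspa8.

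Glucocorticoids also reset the output of clock genes. In edgeR's dose response over 30 mice, 12.2% of all genes passed an unadjusted p of 0.05 and 0.683% the adjusted one. Of 10 genes that peak with Dbp, 7 and 1 did so, and of 4 tested genes of the opposite phase 2 and 0. Compared with HFD-C, 3 of the 10 were lower in HFD-50% (10.7% of all genes passed in either direction) and 6 in HFD-75% (5.47%). Compared with HFD-U, 7 were lower in HFD-50% (12.4%) and 9 in HFD-75% (5.57%). Nr1d1, the repressor REV-ERB alpha, averaged 45.2 ± 15.4 CPM in HFD-C, 24.8 ± 8.45 for HFD-50%, 25.7 ± 8.27 for HFD-75% and 73.2 ± 29.97 for HFD-U (SD, n = 6), with a U-shaped dose response (edgeR's adjusted p = 0.00361 by Benjamini-Hochberg). Bhlhe41, another repressor, averaged 65.2, 35.5, 46.2 and 80.0 CPM, and Per1 119, 84.5, 82.6 and 101 CPM. In the opposite phase Arntl, which encodes BMAL1, averaged 8.44 CPM in HFD-C and 17.7 in HFD-50%, and Nfil3 31.9 and 61.1 CPM, while Cry1 was at 13.4 and 13.9 CPM. Of 4 genes of that phase tested, 2 were higher in HFD-50% and 3 in HFD-75% than in HFD-C (10.7% and 5.47% of all genes passed in either direction). Single HFD-50% mice ranged from 5.60 to 36.9 CPM for Arntl, and without HFD-50% mouse 4 its difference from HFD-C missed the threshold (unadjusted p = 0.0784).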
